A study of Mus musculus with 2 samples.

Results

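Genes that carry the symbol Zfp and a number form a large set of mouse zinc finger genes, and the open regions at their ends were followed in basal cells of stretched and of untreated skin. A member was any merged open region with at least 20 counts, summed over both libraries, that touched an annotated end of a protein-coding gene whose symbol is Zfp followed by digits only. Zfp36 and its relatives with other symbols were left out, because they encode RNA-binding proteins of another kind. RefSeq lists 366 such genes on GRCm38, of 21887 protein-coding genes, and 268 of the 94857 regions with at least 20 counts touched one of their ends. A gene with another gene of the set within 100 kb is called clustered here (212 genes, 154 regions), and the rest are called single (154 genes, 114 regions). The choice of members used names and positions, and no accessibility value beyond the minimum of 20 counts, though earlier results of these data were known.

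Most numbered Zfp genes encode proteins with runs of C2H2 zinc fingers, each of which can contact a few bases of DNA. Many of them also carry a KRAB domain, which recruits TRIM28 and through it the histone methyltransferase SETDB1, and these proteins are best known for silencing retroelements in embryonic cells. KRAB zinc finger genes arose by repeated tandem duplication and lie in families along a few chromosomes. The symbol itself is no guide to the domain, since Zfp91, Zfp185, Zfp207 and Zfp750 are among the numbered genes without a KRAB domain, and the members could not be sorted by protein domain here.

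ATAC-seq reads chromatin accessibility through the transposase Tn5, which cuts open DNA and leaves sequencing adapters in it. The stretched library came from a CD1 mouse whose back skin was expanded by mechanical force, and the control library from an untreated CD1 mouse. Both held 10000 cells of the interfollicular epidermis, sorted as basal cells for the integrin subunit ITGA6 and for the absence of CD34, which marks stem cells of the hair follicle. CD1 is an outbred stock, and with 1 animal a group the effect of stretching, the animal and the library cannot be told apart, so the differences described here could be checked against no replicate and carry no p-value.

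Counts summed to 11803785 in the stretched library and 8820178 in the control library. In the stretched library 48.9% of them lay in 10 regions with over 10000 summed counts each, against 34.5% in the control library, and the median region had 27 and 30 counts. Of the 6 basal markers, 5 had an open region at a gene end. Krt14 had 632 counts in the stretched and 468 in the control library, and Itga6 had 235 and 159, with intervals of the fold above 1. Krt5 had 529 and 543, Itgb4 348 and 379, and Col17a1 39 and 43, with intervals that hold 1. None of the 4 immune and 2 endothelial markers had such a region, and 1 of 3 had it among fibroblast markers (Col1a2, 14 and 25 counts) and among melanocyte markers (Mlana, 21 and 29). Of the suprabasal markers, 2 of 4 had it, Krt1 with 58 stretched and 111 control counts (0.552, 0.395 to 0.765) and Ivl with 50 and 47. All 4 follicle stem cell markers had it, Lhx2 with 17 stretched and 40 control counts, Krt15 with 139 and 188, Cd34 with 24 and 32 and Lgr5 with 100 and 108. The part of other cells in the results was not tested. In bulk cells, fewer cells with an open site and less opening per cell cannot be told apart. The fold is the stretched over the control count after scaling both libraries with TMM factors, which put the median region near 1, and its 95% interval is an exact Clopper-Pearson interval. With 1 library a group, these intervals cover counting error only. Counts carry no molecular identifiers, so repeated counts of the same molecule could not be removed here and the intervals may be too narrow. Intervals of shares are also Clopper-Pearson intervals. They treat the members as independent, which neighbouring genes are not, and are given as a description.

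Sequence upstream of the annotated transcript starts is shown for 7 genes, because the results return to them. Zfp772, Zfp78 and Zfp455 are the clustered genes with the largest folds, Zfp850 and Zfp14 are clustered genes with fewer counts after stretching, and Zfp687 is the single gene with the most counts. Zfp600, a clustered gene with no open region at its ends, shows a duplicated promoter. Each line gives the 250 bases before a start, 5′ to 3′ on the strand of the gene, from RefSeq on GRCm38.p6. Capitals mark matches, on either strand, to 11 short motifs. These are the GC box GGGCGG of Sp and KLF factors, the CCAAT box of NF-Y, the ETS core CCGGAAG, the NRF1 core TGCGCA, the YY1 core ATGGCGG, and TCGCGA from the palindrome bound by ZBTB33. The others are the E-box CACGTG of USF and MYC, the cAMP response core TGACGT, the AP-1 site TGANTCA, the TATA box TATAAA, and ACTACA, the first letters of the sequence bound by human ZNF143. The positions are chr7:7209999-7210248 for Zfp772 (minus strand), chr7:6363058-6363307 for Zfp78 (plus), chr13:67194256-67194505 for Zfp455 (plus), chr7:28014116-28014365 for Zfp850 (minus), chr7:30051397-30051646 for Zfp14 (minus), chr3:95015458-95015707 for Zfp687 (minus) and chr4:146156577-146156826 for Zfp600 (plus).
Zfp772: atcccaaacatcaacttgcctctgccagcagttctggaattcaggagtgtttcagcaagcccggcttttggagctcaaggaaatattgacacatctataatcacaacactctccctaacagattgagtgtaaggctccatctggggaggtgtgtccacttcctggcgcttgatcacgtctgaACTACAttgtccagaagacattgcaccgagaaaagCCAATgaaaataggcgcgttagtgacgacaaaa
Zfp78: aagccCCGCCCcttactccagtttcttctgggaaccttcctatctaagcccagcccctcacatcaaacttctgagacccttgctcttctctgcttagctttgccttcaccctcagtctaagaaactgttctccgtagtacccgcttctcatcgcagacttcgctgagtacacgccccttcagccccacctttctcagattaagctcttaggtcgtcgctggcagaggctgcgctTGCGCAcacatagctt
Zfp455: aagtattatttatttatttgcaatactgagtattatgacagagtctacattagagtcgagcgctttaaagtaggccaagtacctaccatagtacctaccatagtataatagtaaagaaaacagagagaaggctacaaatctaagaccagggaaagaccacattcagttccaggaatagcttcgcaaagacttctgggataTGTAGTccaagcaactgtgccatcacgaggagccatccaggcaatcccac
Zfp850: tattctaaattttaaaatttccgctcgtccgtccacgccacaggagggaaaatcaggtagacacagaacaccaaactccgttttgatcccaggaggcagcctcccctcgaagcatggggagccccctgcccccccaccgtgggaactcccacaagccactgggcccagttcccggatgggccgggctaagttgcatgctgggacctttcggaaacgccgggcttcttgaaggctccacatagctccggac
Zfp14: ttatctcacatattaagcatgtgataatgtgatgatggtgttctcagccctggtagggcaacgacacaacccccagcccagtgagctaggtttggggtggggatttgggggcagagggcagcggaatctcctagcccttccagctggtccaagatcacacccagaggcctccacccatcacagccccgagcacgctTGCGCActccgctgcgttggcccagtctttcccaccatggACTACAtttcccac
Zfp687: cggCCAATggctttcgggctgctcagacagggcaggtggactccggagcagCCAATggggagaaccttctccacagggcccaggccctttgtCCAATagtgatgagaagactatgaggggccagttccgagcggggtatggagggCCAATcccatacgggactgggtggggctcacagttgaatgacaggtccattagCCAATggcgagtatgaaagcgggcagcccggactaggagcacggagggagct
Zfp600: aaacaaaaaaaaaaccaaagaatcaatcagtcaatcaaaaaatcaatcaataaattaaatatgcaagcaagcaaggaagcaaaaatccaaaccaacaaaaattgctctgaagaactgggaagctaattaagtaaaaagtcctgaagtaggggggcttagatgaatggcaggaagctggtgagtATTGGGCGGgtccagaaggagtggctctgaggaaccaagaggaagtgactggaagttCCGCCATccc

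The stretch of Zfp772 holds a CCAAT and an ACTACA, and that of Zfp455 holds ACTACA on the other strand. Zfp850 holds none of the motifs in this window, and Zfp687 holds CCAAT 5 times. In Zfp600 a CCAAT match on the minus strand overlaps a GGGCGG match. The Zfp78 stretch lies 499 bases and the Zfp687 stretch 491 bases from the end of the gene as listed in the gene table, since the transcript chosen for the promoter starts elsewhere.

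The first question was how many of these genes were open at an end in basal cells. At least 1 region was found at 269 of the 366 genes (73.5%, interval 68.7 to 77.9), against 11970 of 21521 other protein-coding genes (55.6%). The share was 73.6% (67.1 to 79.4) in clustered and 73.4% (65.7 to 80.2) in single genes. Where the strand was listed (304 genes), the region touched the start in 221 and the far end in 5, so these regions are mostly promoters. They were 434 to 3060 bp long with a median of 1134.5 bp. Of the 268 regions, 24 also touched the end of a gene outside the set.

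Open Zfp promoters were not weak sites. Their median summed count was 262.5, against 247 at the ends of other genes and 69 over all regions, and it was 244 at clustered and 291.5 at single genes. Per kb of region, Zfp317 had 881 stretched and 333 control counts, Zfp869 had 546 and 468, and Zfp618 had 14.7 and 15.9. Most were also called as peaks by the authors in each library alone, with 258 in both, 7 in the stretched library only, 0 in the control library only and 3 in neither. The members nearest above the limit of 20 counts were Zfp618 with 12 stretched and 13 control counts and Zfp105 with 17 and 10. The nearest below it were Zfp286 with 6 and 13 and Zfp706 with 7 and 5.

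Some members of known function had no region at an annotated end. They were Zfp57, which maintains methylation at imprinted genes, Zfp423, a regulator of adipocyte precursors, Zfp217 and Zfp462. Among chains of clustered genes, the one on chromosome 4 that runs from Zfp978 to Zfp933 over 724 kb had regions at 2 of 9 genes. The chain with the most genes, on chromosome 7 between Zfp84 and Zfp146, had regions at 14 of 15.

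Regions at Zfp genes had more counts in the stretched library in most cases. The median log2 fold was 0.43, with 213 of 268 regions (79.5%) above 0, against a median of 0.30 at the ends of other genes and -0.00 over all regions. At least 2-fold higher with an interval that excludes 1 were 34 regions (12.7%, 8.95 to 17.3), and at least 2-fold lower by the same rule were 6 (2.24%, 0.826 to 4.81). The background was 7.22% higher and 8.71% lower over all regions, and 9.85% higher and 2.47% lower over the 11112 other gene-end regions. The share of higher calls among Zfp regions is thus close to that of gene ends in general. Its interval, which treats regions as independent, contains the background of other gene ends. Scaling by library totals gave 2 higher and 14 lower Zfp regions and moved the median of all regions to -0.50, and scaling by the totals outside the 10 large regions gave 22 higher and 7 lower with a shift of -0.14. All directions here are therefore relative to the median region.

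**Figure D1:**
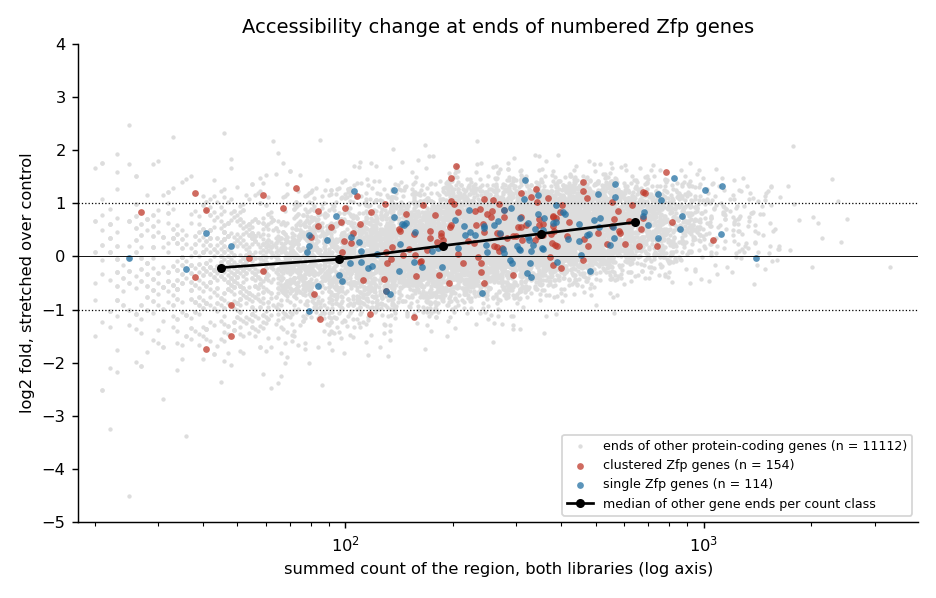
Log2 fold of stretched over control against the summed count of each region (log axis). Red points are regions of clustered Zfp genes, blue points those of single ones, grey points the ends of other protein-coding genes, the black line their median per count class, and dotted lines mark 2-fold; the Zfp points rise with count along with the other gene ends.

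The fold grew with the count, at Zfp and at other gene ends alike. Zfp regions with 20 to 63 counts had a median log2 fold of -0.03 (14 regions), against -0.21 at other gene ends. The Zfp median was 0.35 at 128 to 255 counts (79 regions), against 0.21 at other gene ends, and 0.68 at 512 or more counts (38 regions), against 0.64. The gap between Zfp and other gene ends was 0.32 at 64 to 127 counts and 0.04 at 256 to 511 and at 512 or more. With the median of other gene ends of like count taken away, the Zfp median was 0.12.

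Among genes with at least 100 counts, the largest fold was at Zfp772, the last gene of a chain of 4 on chromosome 7. Zfp772 had 154 counts in the stretched and 50 in the control library, a fold of 3.25 (2.35 to 4.57). Zfp78, on the same chromosome, had 582 stretched and 204 control counts (3.01, 2.57 to 3.55). Both are clustered genes whose upstream stretches are shown above. Zfp455 had 143 stretched and 54 control counts (2.80, 2.03 to 3.90), and Zfp983 had 328 and 132 (2.63, 2.14 to 3.24). The single gene Zfp317 had 600 stretched and 227 control counts (2.79, 2.39 to 3.27). Zfp438 had 228 stretched and 89 control counts, and Zfp131 had 401 and 164, with folds of 2.71 (2.11 to 3.50) and 2.58 (2.15 to 3.12). Zfp91, a ubiquitin ligase of the non-canonical NF-kB pathway, had 793 stretched and 335 control counts (2.50, 2.199 to 2.85) at an end it shares with Lpxn. In all 8 of these genes the whole interval of the fold lay above 2.

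Lower calls were few, with 5 at the 154 clustered and 1 at the 114 single regions. They were Zfp811 with 9 stretched and 32 control counts, Zfp334 with 12 and 36, Zfp647 with 25 and 60, Zfp251 with 47 and 109, Zfp850 with 36 and 81, and Zfp90 with 25 and 54, the only single gene among them. Their folds lay between 0.297 (0.125 to 0.637) at Zfp811 and 0.489 (0.292 to 0.800) at Zfp90. Zfp251 and Zfp647 lie on chromosome 15, where the 9 Zfp regions had a median log2 fold of -0.26. With at least 100 counts, only Zfp251 (0.456, 0.317 to 0.647) and Zfp850 (0.470, 0.308 to 0.704) were among them. The next smallest folds were 0.616 at Zfp512, 0.619 at Zfp296, 0.639 at Zfp563 and at Zfp629, 0.704 at Zfp623 and 0.709 at Zfp763, and none of these passed the limit of 2-fold. The region of Zfp296 is at its far end and shared with Clasrp.

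The members with the most counts did not move alike. Zfp687 had 677 stretched and 725 control counts (0.987, 0.887 to 1.10), Zfp788 had 625 and 495 (1.33, 1.18 to 1.504), and Zfp869 had 572 and 490 (1.23, 1.09 to 1.39). Zfp654 had 697 stretched and 311 control counts (2.37, 2.07 to 2.72), at an end shared with Cggbp1. The intervals of Zfp687 and Zfp654 do not overlap.

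The members listed for their known roles stayed below the limit of 2-fold. Zfp750, an epidermal differentiation factor downstream of p63, had 88 stretched and 87 control counts (1.07, 0.786 to 1.45). Zfp148 and Zfp281, related factors that bind GC-rich promoters, had 153 and 226 stretched counts, against 107 and 154 control counts, with folds of 1.51 (1.17 to 1.95) and 1.55 (1.26 to 1.92). Their intervals exclude 1, unlike that of Zfp750. Zfp143, a promoter-binding activator, had 410 stretched and 288 control counts (1.504, 1.29 to 1.76), and Zfp207, a protein of spindle assembly and splicing, had 85 and 59 (1.52, 1.08 to 2.16). Zfp809, a KRAB protein that represses murine leukaemia virus in embryonic cells, had 222 stretched and 157 control counts (1.49, 1.21 to 1.84). Zfp568, a KRAB repressor of an Igf2 transcript in the embryo, had 76 stretched and 86 control counts (0.934, 0.677 to 1.29). Zfp664 had 139 and 183 counts (0.803, 0.639 to 1.01) at an end shared with Ccdc92, and Zfp110 had 235 and 146 (1.70, 1.38 to 2.11). Chosen after its value was seen, Zfp185, which encodes an actin-associated LIM domain protein, had 95 stretched and 42 control counts (2.39, 1.65 to 3.52).

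**Figure D2:**
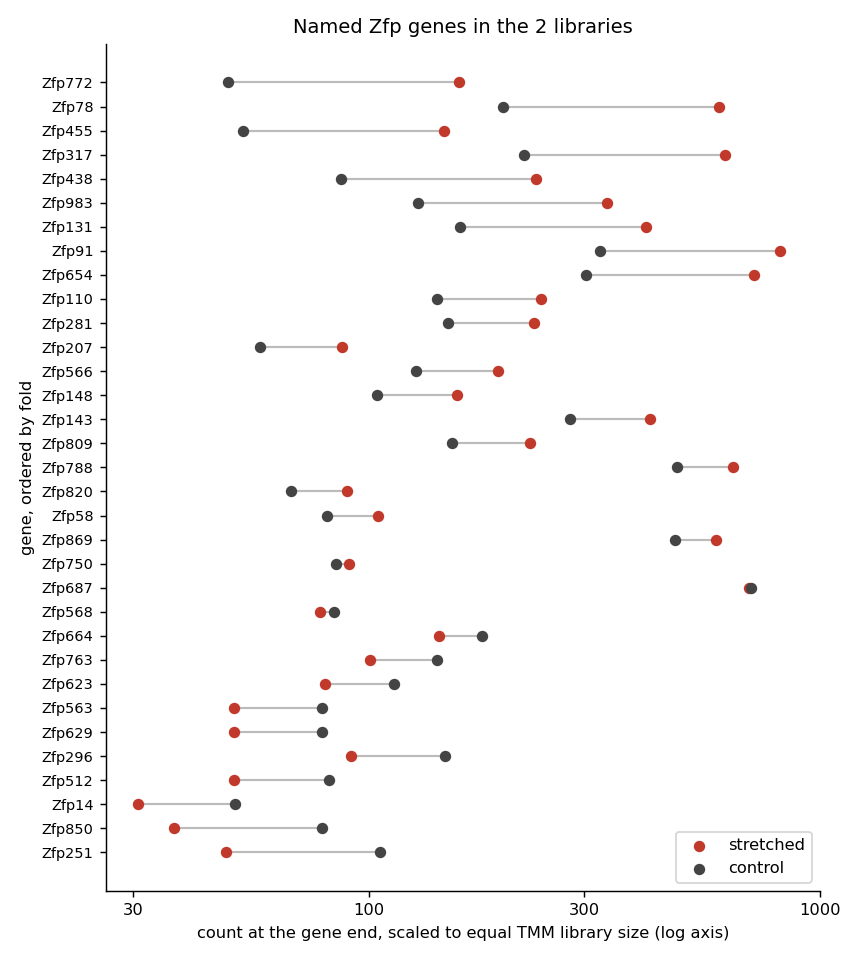
Counts at the ends of the named Zfp genes in the stretched (red) and control (dark) library, each scaled to equal TMM library size, on a log axis. Genes run down the page by fold, with Zfp772 at the top and Zfp251 at the bottom, and a grey line joins the 2 libraries of each gene.

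Clustered and single genes were then compared. Of the clustered regions 21 (13.6%, 8.64 to 20.1) were higher and 5 (3.25%, 1.06 to 7.41) lower, with a median log2 fold of 0.45. Of the single regions 13 (11.4%, 6.21 to 18.7) were higher and 1 (0.877%, 0.0222 to 4.79) lower, with a median of 0.40. The intervals of the lower shares overlap, and both contain the 2.47% of other gene ends. The intervals of the higher shares overlap over most of their length. All these intervals treat regions as independent, which neighbouring genes are not. The difference of the medians, 0.05, is small beside the spread within each class. The middle 50% lay between 0.16 and 0.83 for clustered and between 0.08 and 0.69 for single regions. Counted per gene, the interval of the fold lay above 1 in 90 of 156 clustered genes and below 1 in 11, and above 1 in 60 of 113 single genes and below 1 in 5. The closest gaps on either side of the 100 kb limit were 97.8 kb at Zfp605 and Zfp932 and 104 kb at Zfp936 and Zfp715.

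The 2 kinds of genes sit in different surroundings. Gene density, counted as protein-coding genes whose centre lay within 500 kb, had a median of 27 around clustered and 18 around single Zfp regions, against 15 around other gene ends. Other gene ends had a lower fold where genes are dense, with a median log2 fold of 0.50 at 0 to 5 genes, 0.52 at 6 to 10, 0.30 at 11 to 20, 0.13 at 21 to 40 and 0.10 above 40. Zfp regions in the same classes had medians of 0.56, 0.47, 0.49, 0.38 and 0.28, from 14, 23, 79, 119 and 33 regions. Among 21 to 40 genes, the clustered median was 0.45 (79 regions) and the single median 0.27 (40 regions), and above 40 genes they were 0.28 (23 regions) and 0.31 (10 regions). With the median of other gene ends of like count and like density taken away, the clustered median exceeded the single one by 0.21. Both this setting and like count alone, which gave 0.07, were added after the data were seen. The clustered median was above the single one at 64 to 127 counts (0.56 and 0.07) and 256 to 511 (0.52 and 0.43). It was below at 20 to 63 (-0.15 and 0.08), 128 to 255 (0.33 and 0.40) and 512 or more counts (0.65 and 0.76).

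**Figure D3:**
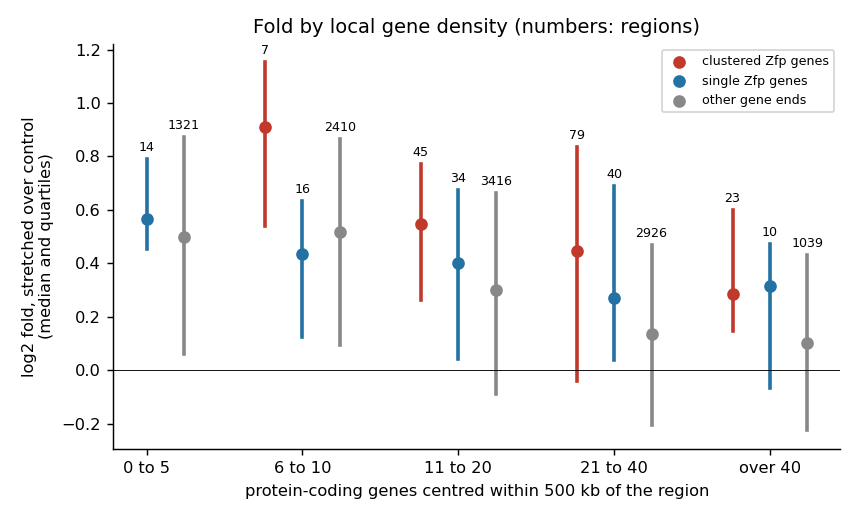
Median log2 fold of stretched over control by the number of protein-coding genes within 500 kb, for clustered Zfp, single Zfp and other gene-end regions. Other gene ends fall to 0.10 above 40 genes, where the clustered Zfp median is 0.28 and the single one 0.31.

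The clustered genes formed 52 chains, in which each gene lies within 100 kb of the next, and 15 chains had 4 or more regions (94 regions in all, a minimum chosen after the values were seen). Genes of a chain are neighbours and often copies of each other, so they are not independent of one another. Among these 15, the chain medians spanned -0.26 to 1.09 on the log2 scale, with 9 chains at 0.73 to 1.09, 6 at -0.26 to 0.31 and none between. The 37 smaller chains held 60 regions, and their medians filled that gap and went beyond it. Of the 32 with a region, 9 had medians between those of the 2 sets, and the range was -1.51 to 1.01. They held 5 higher and 4 of the 5 lower calls of clustered genes, and the chain from Zfp251 to Zfp647 on chromosome 15 had a median of -1.13 over 3 regions. In the 9 chains all 53 regions had a fold above 1, 16 were higher by the 2-fold rule and 0 lower. In the 6 chains 26 of 41 regions had a fold above 1, 0 were higher and 1 was lower. These 2 sets were formed from the folds themselves and are a description. Scaling by library totals moves every chain by the same amount, to medians of 0.23 to 0.59 in the 9 chains and -0.76 to -0.19 in the 6. With the trend on count removed, the medians were 0.46 to 0.89 and -0.33 to 0.06.

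The chain from Zfp954 to Zfp772, on chromosome 7, had 3 of 4 regions higher. Zfp954 had 366 stretched and 189 control counts, Zfp773 had 73 and 35, and Zfp418 had 252 and 169, beside Zfp772 above. Their folds of 2.05 (1.71 to 2.45), 2.204 (1.45 to 3.40) and 1.58 (1.29 to 1.93) all have intervals above 1. Between Zfp787 and Zfp28, less than 1 Mb away, Zfp667 had 211 stretched and 98 control counts (2.28, 1.78 to 2.92), Zfp28 had 175 and 93 (1.99, 1.54 to 2.59) and Zfp444 had 487 and 329 (1.56, 1.36 to 1.80). Together with Zfp78 these 4 regions had a median log2 fold of 1.09, as did the 4 regions of the Zfp954 to Zfp772 chain.

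On chromosome 13, the chain from Zfp712 to Zfp748 had regions at 10 of 14 genes, with a median of 0.73 and 3 higher. Zfp712 had 319 stretched and 143 control counts (2.36, 1.93 to 2.89), Zfp458 had 40 and 19 (2.22, 1.26 to 4.07) and Zfp457 had 107 and 58 (1.95, 1.40 to 2.73). At the low end Zfp58 had 102 and 83 counts (1.30, 0.962 to 1.76) and Zfp456 had 104 and 81 (1.36). So all 10 leaned the same way, while the smallest of them were within or at the edge of counting error. In the chain from Zfp677 to Zfp943 on chromosome 17, Zfp51 had 466 stretched and 212 control counts (2.32, 1.97 to 2.75), and Zfp820 had 87 and 69 (1.33, 0.960 to 1.85).

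The chain from Zfp84 to Zfp146 on chromosome 7 behaved otherwise. None of its 14 regions passed the 2-fold rule in either direction, and the median log2 fold was 0.08 with a range of -0.92 to 0.60. Zfp566 had 188 stretched and 131 control counts (1.52, 1.21 to 1.91) and Zfp260 had 116 and 81 (1.51, 1.13 to 2.04). Zfp27 had 16 stretched and 32 control counts (0.528, 0.271 to 0.992), and Zfp14, whose upstream stretch is shown above, had 30 and 52 (0.610, 0.375 to 0.974). The 2 ends of this range have intervals on opposite sides of 1 within 401 kb. The chain from Zfp871 to Zfp563 on chromosome 17 had the lowest median of the 15 chains with at least 4 regions, -0.26 over 8 regions, from -1.75 at Zfp811 to 0.55 at Zfp472, which had 114 stretched and 82 control counts (1.47, 1.10 to 1.98). Zfp870 had 46 and 66 counts (0.736, 0.494 to 1.09). A chain of very open promoters on chromosome 8, from Zfp868 to Zfp866, had a median of 0.24 over 5 regions with a median of 670 counts, among them Zfp964 with 179 stretched and 220 control counts (0.860, 0.702 to 1.05).

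**Figure D4:**
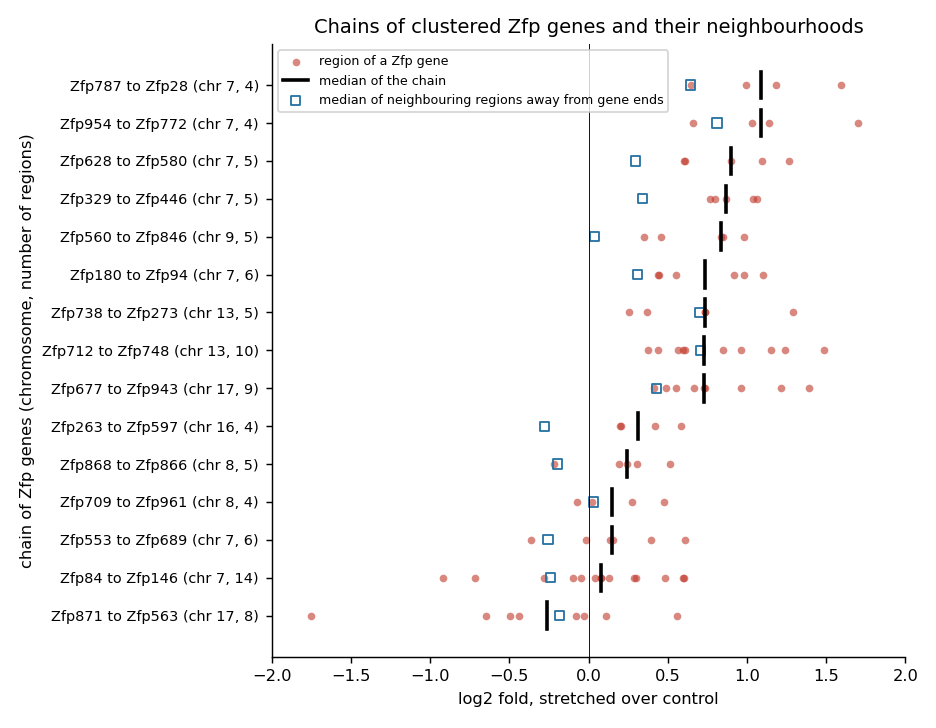
Log2 fold of every region (points) in the 15 chains of clustered Zfp genes with at least 4 regions, their median (bar) and the median of neighbouring regions within 500 kb that touch no gene end (open square). Chains run down the page by median, with 9 at 0.73 or above and 6 at 0.31 or below. The squares are lower than the bars in 14 of 15. Regions away from gene ends are also lower in general, with a median of -0.05 against 0.30 at ends of other genes.

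Regions around a chain that touch no gene end were higher where the chain was higher. Within 500 kb of the 9 high chains their median log2 fold was 0.04 to 0.81, and around the 6 low chains it was -0.28 to 0.03. Over the 15 chains the 2 medians had a Pearson r of 0.82 and a Spearman rho of 0.69, given as a description, because all chains share the same libraries and nearby chains share neighbouring regions. The chain median was above that of these neighbours in 14 of 15 chains, and above that of neighbouring ends of other genes in 10. Regions away from gene ends are lower in general, with a median of -0.05 against 0.30 at ends of other genes. With the ends of other genes near the chain, rho was 0.09 (r 0.31), with the median count of the chain it was 0.32 and with gene density -0.29. The neighbouring gene-end medians rest on few regions at some chains, with 2 at Zfp677 to Zfp943, 2 at Zfp787 to Zfp28 and 3 at Zfp954 to Zfp772. Away from gene ends these chains had 34, 16 and 6 neighbours. The chain from Zfp553 to Zfp689 had 38 and 70, so the rho of 0.09 and of 0.69 do not rest on like numbers. The chain from Zfp329 to Zfp446 was one where neighbouring gene ends were high too, with 5 of 9 called higher and a median of 1.06.

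Regions were also taken one by one. Each Zfp region was set beside the regions within 250 kb that touch no gene end, where at least 5 were present (242 of 268 regions). With a neighbourhood median above 0.25, 21 of 76 Zfp regions (27.6%) were higher and 0 lower, with a median log2 fold of 0.73, against 25.1% higher and a median of 0.67 at other gene ends in such places. With a neighbourhood median below -0.25, 0 of 56 Zfp regions were higher and 4 (7.14%) were lower, with a median of 0.14, against 1.92% higher, 4.84% lower and a median of 0.03 at other gene ends. These 4 were among 21 clustered regions, and 0 of 35 single regions were lower there. In between, 7 of 110 Zfp regions (6.36%) were higher and 2 lower, with a median of 0.35, against 9.18% higher and a median of 0.38 at other gene ends. The Zfp median was thus above that of other gene ends in the outer classes and below it in the middle one. Of the Zfp regions 31.4% had a neighbourhood above 0.25, against 18.2% of other gene ends, and the share was 40.9% of clustered and 19.0% of single regions. Across regions, rho with the neighbourhood was 0.61 at clustered (137), 0.41 at single (105) and 0.44 at other gene ends (10773), all from the same libraries. Clustered genes lie within 100 kb of another by definition, so their 250 kb windows share neighbouring regions. The 137 values are therefore not separate observations. For this reason 0.61 and 0.41, and 40.9% and 19.0%, are not a like comparison.

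The promoters were then described by their sequence. RefSeq promoters of 300 bases, 250 before and 50 after the start, matched 304 of the 366 genes. The CpG ratio, observed over expected CpG from the base composition, had a median of 0.616 at clustered genes with a region (135 promoters) and 0.741 at single ones (88), against 0.770 at other genes with a region (9579). Zfp genes without a region had a median of 0.460 (81), and other genes without one 0.220 (7609). A ratio of at least 0.6 was found at 58.3% of Zfp promoters with a region and 38.3% of those without, against 73.6% and 16.4% at other genes. Among genes without a region the Zfp promoters had the higher share, and among genes with one the other genes had it. Here and below, with or without a region refers to the annotated gene ends. The promoter start matched the annotated gene start exactly in 33 of 81 Zfp genes without a region and 101 of 223 with one. Elsewhere the distance varied, such as 1 base at Zfp511, 10256 at Zfp821 and 63424 at Zfp936. At distant promoters an open region was not tested, so these shares do not compare open with closed promoters.

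**Figure D5:**
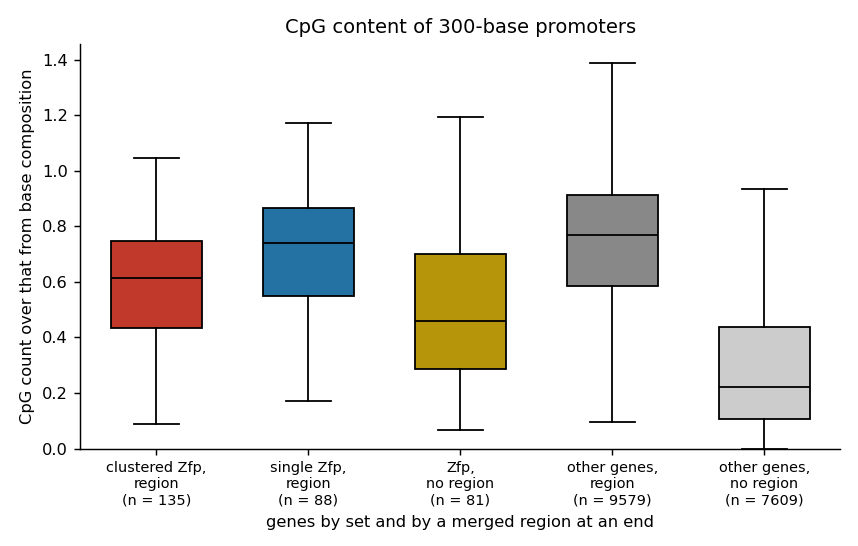
Observed over expected CpG ratio in the 300-base RefSeq promoters of clustered Zfp, single Zfp and other protein-coding genes, with and without an open region at a gene end. Medians are 0.616, 0.741 and 0.770 with a region, and other genes without one have the lowest median, 0.220.

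Some promoters were near copies of others. At least 50% of the 31-base windows of a promoter were also found in the promoter of another, non-overlapping gene at 16 of 81 Zfp genes without a region (19.8%) and at 10 of 223 with one (4.48%), against 13.4% and 0.251% of other genes. Zfp600 was among them, with 94.4% of its windows shared. Reads from such copies may not map to 1 place, so for these genes the lack of a region cannot be read as closed chromatin.

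The GC box GGGCGG was in 46.6% of Zfp promoters with a region, against 66.8% of those of other genes with a region and 46.3% of all promoters of protein-coding genes. It was in 39.3% of clustered and 58.0% of single ones. The CCAAT box was in 49.8% of Zfp promoters with a region (other genes 38.7%, all 39.2%), and the ETS core CCGGAAG in 20.2% (17.7%, all 11.9%). TCGCGA was in 2.22% of clustered and 12.5% of single promoters (all 3.45%). The AP-1 site TGANTCA was in 2.69% of Zfp promoters with a region (other genes 5.17%, all 7.03%). The NRF1 core was in 13.0% of Zfp promoters with a region (all 10.1%), the YY1 core in 11.7% (all 5.44%) and the E-box in 8.52% (all 7.91%). The cAMP response core was in 12.6% (all 8.71%) and the TATA box in 4.48% (all 13.3%). All motifs were searched on both strands of the 300 bases.

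One further motif was added after the sequences had been read. ACTACA was in 51 of 135 clustered promoters with a region (37.8%) and 13 of 88 single ones (14.8%), against 10.2% of other genes with a region and 10.7% of all promoters. It was in 13.6% of Zfp promoters without a region. The median GC content was 53.7% in clustered, 59.2% in single and 61.3% in other promoters with a region, and copied promoters of a chain can share a match. Of the stretches above, Zfp772, Zfp455 and Zfp14 hold it, the first 2 at genes with large folds and the last at one with fewer counts after stretching. Clustered regions whose promoter holds ACTACA had a median log2 fold of 0.55 (51 regions), against 0.42 (83 regions) without it. Zfp772 and Zfp455, whose stretches are shown because of their large folds, are counted among those with it. Several of the 51 are neighbours, such as Zfp712, Zfp455, Zfp457 and Zfp748 in a high chain and Zfp14, Zfp566 and Zfp260 in a low one. Motif and chain were not separated, so the values are a description. The medians leaned the same way at single Zfp genes, 0.52 with (13 regions) and 0.41 without (74 regions), and at other genes, 0.40 with and 0.34 without. Single genes leaned the other way once the median of gene ends of like count was taken away, -0.01 with and 0.07 without. Clustered regions then had 0.21 with and 0.02 without, and other genes 0.03 and 0.01. For CCGGAAG the Zfp medians were 0.69 with (45 regions) and 0.42 without (176 regions), and at other genes 0.48 and 0.31. Of these Zfp regions, 5 with it and 23 without it were higher. With like count taken away, clustered regions had 0.15 with and 0.15 without it, and single ones 0.19 and -0.01. Zfp medians were also higher with TCGCGA (0.74 in 14 regions, 0.43 without), TATAAA (0.70 in 10, 0.44 without) and CACGTG (0.61 in 18, 0.43 without). With like count taken away, they were 0.17 with and 0.10 without TCGCGA, 0.38 and 0.10 for TATAAA, and 0.42 and 0.07 for CACGTG. Other genes had 0.50 and 0.34 for TCGCGA, 0.32 and 0.35 for TATAAA, and 0.40 and 0.34 for CACGTG. Zfp medians were lower with CCAAT (0.41 and 0.49 without) and TGCGCA (0.39 and 0.44). Other genes had 0.35 and 0.34 for CCAAT, and 0.44 and 0.32 for TGCGCA.

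Related gene lists were described in the same way. Genes named Zbtb and a number, zinc finger factors with a BTB domain, had 6 of 31 regions higher (19.4%, 7.45 to 37.5) and 0 lower, with a median log2 fold of 0.40, against 9.85% higher, 2.47% lower and a median of 0.30 at the ends of genes outside the Zfp set. Zscan and Zkscan genes, which carry a SCAN domain, had 1 of 19 higher (5.26%, 0.133 to 26.03) and 0 lower, with a median of 0.43. Genes of KRAB corepressors and heterochromatin had 4 of 21 regions higher (19.0%, 5.45 to 41.9) and 0 lower, with a median of 0.47. The intervals of all 3 lists contain the background of 9.85%. Trim28, the corepressor bound by KRAB domains, had 384 stretched and 165 control counts (2.46, 2.04 to 2.97), and its gene starts at 13024152 on chromosome 7, within 500 kb of the Zfp329 to Zfp446 chain. Suv39h2, a histone H3 lysine 9 methyltransferase, had 289 and 128 (2.39, 1.93 to 2.96), Atf7ip, a partner of SETDB1, had 98 and 43 (2.41, 1.67 to 3.53), and the remodeller Smarcad1 had 99 and 44 (2.38, 1.65 to 3.47). Of the 21, 3 had a fold below 1. Setdb1 itself had 35 stretched and 44 control counts (0.841, 0.523 to 1.34), and Ehmt2, another lysine 9 methyltransferase, had 85 and 122 (0.736, 0.551 to 0.979), and the remodeller Chd4 had 132 and 153 (0.912, 0.717 to 1.16). Cbx1, Chd3, Dnmt1, Dnmt3a and Tasor had no region at an end.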

How the data were processed

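Open chromatin was measured in 1 library of stretched and 1 of untreated skin. Per the submitters' processing notes, the build was GRCm38 and the tools were HTSeq, Picard, SAMtools, MACS2 2.1.0.20151222 and Bowtie2 2.2.6. The deposited count tables hold whole-number counts, not normalized, for 109257 merged regions. The sources used here do not give whether these are reads or fragments, or how duplicates and multiply mapped reads were treated. Per the file headers, the authors called peaks in each library by itself, from 23876613 stretched and 31944854 control fragments with a q-value cutoff of 0.05. The deposited peak tables give the signal at each summit, the -log10 p-value and q-value, and the fold enrichment, a ratio to the background nearby; here they only show which regions hold a peak.

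TMM factors came from edgeR 4.0.16 (R 4.3.3) over all regions, and were 0.841 for the stretched and 1.19 for the control library. A call needed a fold of at least 2, at least 20 counts and a 95% interval without 1; a count of 0 was set to 3. The rule was tested on simulated counts that held counting error only, so the test does not cover differences between animals or libraries. Neighbouring genes were grouped at gaps up to 100 kb, and like-count values used 20 bins of other gene-end regions. Positions came from RefSeq, and promoters from RefSeq on GRCm38.p6; strand was taken from the promoter table. The rest ran in Python 3.11.15 with scipy 1.17.1, numpy 2.4.6, statsmodels 0.14.6, pandas 2.3.3 and matplotlib 3.10.9. Named genes were the 8 largest and 8 smallest folds with at least 100 counts, the 5 with the most counts, the largest and smallest folds with at least 50 counts in the 3 chains with the most genes, and 13 genes of known function; further genes of the chains, the lower calls below 100 counts, Zfp185 and Zfp600 were named after their values were seen. Members and lists were chosen with earlier results of these data known. The planned split by protein domain was not made.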

Additional observations from a re-analysis of the deposited data

How the results depend on the processing

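No paired analysis was possible because each group had 1 library. Scaling by library totals gave 2 higher and 14 lower Zfp regions and turned their median log2 fold to -0.069, with all regions at -0.50. By totals outside the large regions 22 were higher and the median was 0.29. With the trend on count removed 13 were higher and the median was 0.23, and with gene ends of like count taken away (added after the data were seen) it was 0.12. A minimum of 100 counts left 2 lower, regions within 1 kb of an end gave 10 lower and starts alone 3 lower. At a fold of at least 1.5, 101 were higher and 12 lower. DESeq2 1.42.0 size factors moved no result by over 1.5 times. A change of library scale moves all regions alike and cannot alter a difference of medians. Under the other alternatives run, Zfp regions stayed above other gene ends by 0.08 to 0.18. Clustered regions stayed above single ones by 0.03 to 0.21, but the order changed between count classes. The 0.21 came from taking away gene ends of like count and density, a setting added after the data were seen. A limit of 50 kb for clusters gave 0.13. With 1 animal a group, counting error is the only error measured.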
